A study of Mus musculus with 186 samples.

Results

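Cops8, Mul1 and Nsmce1 are housekeeping genes of the ubiquitin and ubiquitin-like pathway whose CpG island promoters were placed in front of a reporter in mouse embryonic stem cells (ESCs) and then stripped of CpG dinucleotides in steps. Their constructs were taken from the library of CpG mutants as every row whose genomic interval holds the annotated start of one of these genes, which gave 15 of the 60 constructs in that library, 5 for each promoter, among 12 promoters. The same rule found 3 of the 273 constructs in an earlier library of unmutated housekeeping promoters. The 5 constructs of a promoter carry 0%, 25%, 50%, 75% or 100% of the mutable CpGs changed by C-to-A substitution. CpGs inside motifs of bound transcription factors (motif-CpGs) were kept, and the CpGs to mutate were drawn at random again at each step, so that a construct with more mutations need not contain the mutations of the step before it. Which CpGs were changed in which construct was not analysed here.

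Each construct was inserted together with short barcodes into 1 fixed site of the genome, in the beta-globin locus. Activity is the RNA of a barcode divided by its DNA, plus 0.05, averaged geometrically over all barcodes that mark a construct. The lowest value an inactive construct can take is therefore 0.05, or -4.32 on the log2 scale, and a construct within 0.5 log2 units of it is called near the lowest value here. The same mutant library was measured in 3 replicates of wild-type (WT) ESCs and in 3 replicates of ESCs from the same line with a knockout of Dnmt1, Dnmt3a and Dnmt3b (TKO). TKO cells lack the enzymes that write and keep DNA methylation. Nothing states that the replicates came from separate insertions of the library, so p-values reflect only how these samples vary, and part of that may be technical. The reporter tables hold inserted constructs only, so markers of ESCs and the levels of the deleted Dnmt genes were not measured in them.

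Ubiquitin is joined to target proteins by a cascade of activating, conjugating and ligating enzymes, and ligases choose the target. COPS8 is a subunit of the COP9 signalosome, a complex that removes the ubiquitin-like protein NEDD8 from cullin ligases and so sets their activity. MUL1 is an E3 ligase of the outer mitochondrial membrane that acts with ubiquitin and with SUMO. NSMCE1 is the RING-domain subunit of the SMC5/6 complex, which keeps chromosomes intact during replication and repair. All 3 promoters belong to the CpG island class, in which transcription starts within a stretch rich in G, C and unmethylated CpGs and usually without a TATA box.

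The unmutated inserts could be read from the mm9 genome, where CpG density and GC content computed from the genome equalled the values deposited with the earlier housekeeping library for all 12 promoters. The unmutated constructs of the mutant library were deposited with the same CpG numbers for all 12, with a GC content that differed from the genome by at most 0.0765 percentage points and a CpG density that differed by at most 0.0025. The Cops8 insert covers chr1:92499747-92500254 on the plus strand, 508 bp, with 253 bp before the annotated start at 92500000. It takes in the whole of exon 1 (92500000 to 92500202), with the start codon at 92500125, and 52 bp of intron 1. The Mul1 insert covers chr4:137990295-137990833 on the plus strand, 539 bp, with 291 bp before the start at 137990586, exon 1 to 137990794 with the start codon at 137990675, and 39 bp of intron 1. The Nsmce1 insert lies on the minus strand at chr7:132634796-132635323, 528 bp, with 213 bp before the start at 132635110, exon 1 down to 132634927 with the start codon at 132634957, and 131 bp of intron 1. In each insert the part of exon 1 before the start codon is 5′ untranslated, and no other gene starts inside the insert or within 300 bp of it.

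The bases of each insert that lie before the annotated start are shown because these are the promoters proper, with every CpG in capitals. These letters are the mm9 reference, 5′ to 3′ on the strand of the gene.
Cops8: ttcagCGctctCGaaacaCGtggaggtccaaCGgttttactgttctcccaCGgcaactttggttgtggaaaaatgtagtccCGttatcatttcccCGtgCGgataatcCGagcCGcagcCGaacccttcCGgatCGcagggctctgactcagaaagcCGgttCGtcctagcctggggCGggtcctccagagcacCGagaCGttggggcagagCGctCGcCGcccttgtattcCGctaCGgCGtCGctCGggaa
Mul1: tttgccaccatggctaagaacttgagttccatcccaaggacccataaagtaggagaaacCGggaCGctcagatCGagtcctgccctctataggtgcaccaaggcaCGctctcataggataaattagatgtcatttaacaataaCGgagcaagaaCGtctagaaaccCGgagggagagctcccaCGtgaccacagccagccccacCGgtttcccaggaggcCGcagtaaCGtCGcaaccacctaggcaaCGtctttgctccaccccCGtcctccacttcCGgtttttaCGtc
Nsmce1: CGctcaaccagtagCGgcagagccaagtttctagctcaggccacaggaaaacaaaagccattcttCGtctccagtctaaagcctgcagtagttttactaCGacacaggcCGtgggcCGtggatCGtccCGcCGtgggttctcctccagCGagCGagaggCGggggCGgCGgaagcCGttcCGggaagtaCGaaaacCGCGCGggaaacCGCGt

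The promoters differ in where their CpGs lie. Cops8 carries 26 CpGs before the start and 26 after it, and Nsmce1 carries 22 before and 28 after. Mul1 has 16 before and 27 after, so its first bases are the poorest in CpGs. In the 200 bp before the start, Cops8 and Nsmce1 each have 21 CpGs and Mul1 has 13, against a median of 7 (quartiles 2 and 15) over 22362 protein-coding genes.

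Short core motifs of common promoter factors were searched on both strands of the inserts. The letters CCGGAAG, the core bound by ETS factors such as GABPA, occur in the 200 bp before the start of 7.58% of genes, and 1 match lies there in Cops8 (at -128 from the start) and 1 in Mul1 (at -17). In Nsmce1 the only match lies inside exon 1. GGGCGG, the core of SP1 sites, is found before 38% of starts, with 2 matches in Cops8, 1 in Nsmce1 and none in Mul1. The whole inserts of Cops8 and Nsmce1 hold 3 each and that of Mul1 none. CACGTG, the E-box of MYC and USF factors, is found before 5.58% of starts and once in this window of Mul1. Cops8 has it once too, at -237 and so outside the window. The letters GCATGCGC (NRF1), CCAAT (NFY), AAGATGGCG (YY1) and TGACGTCA (CRE) are not in any of the 3 inserts, and the shorter CRE letters TGACG, which TGACGTCA also contains, are in each insert once. A match is a stretch of letters and does not show that a factor was bound.

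**Figure D1:**
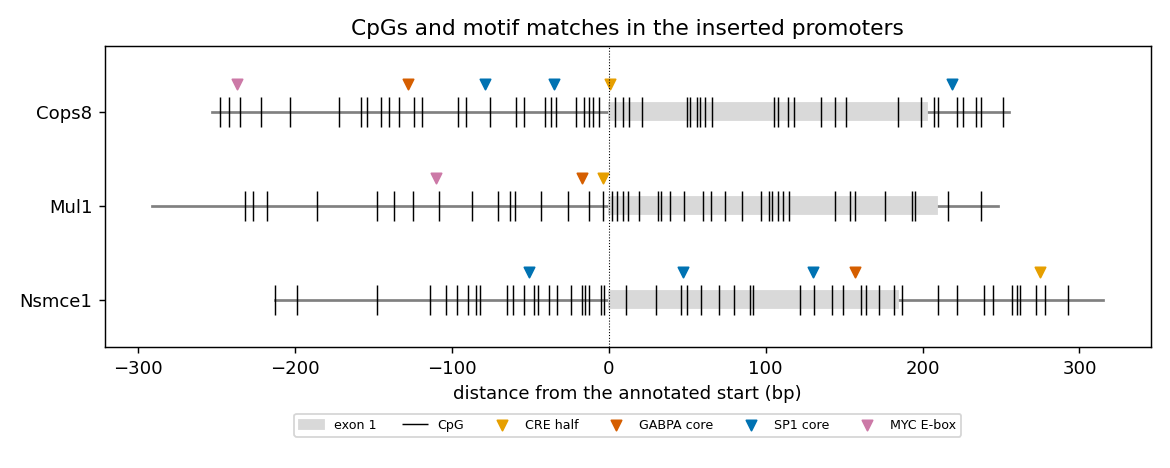
CpGs (black ticks), exon 1 (grey box) and matches to 4 core motifs (triangles) in the unmutated Cops8, Mul1 and Nsmce1 inserts, by distance in bp from the annotated start (dotted line). The 16 CpGs of Mul1 before the start are spread more thinly than the 26 of Cops8 and the 22 of Nsmce1.

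Mutation lowered the number of CpGs in even steps. Cops8 went from 52 CpGs to 42, 31, 20 and 9, Mul1 from 43 to 33, 23, 13 and 2, and Nsmce1 from 50 to 38, 26, 14 and 2. The 9 CpGs left in the 100% construct of Cops8 and the 2 left in those of Mul1 and Nsmce1 are their motif-CpGs. The core motif matches of the Mul1 and Nsmce1 inserts hold more than 2 CpGs each, so some of these matches were mutated. The paper does not exclude that CpGs in unverified motifs were among those mutated. The normalized CpG density, which is the observed number of CpGs over the number expected from the C and G content (OE), fell from 1.05 to 0.26 in Cops8, from 0.88 to 0.05 in Mul1 and from 0.99 to 0.06 in Nsmce1. Because C was changed to A, the GC content fell with it, from 62.5% to 54.1% in Cops8, from 60.3% to 52.7% in Mul1 and from 62.3% to 53.2% in Nsmce1, and the roles of CpG number and GC content cannot be told apart within these series.

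The WT replicates held 2169 to 2341 barcodes in all and the TKO replicates 710 to 756, of which the 3 promoters took 36.1% to 40.9%. The depth was uneven among their constructs. In WT cells it ran from 9 barcodes for Mul1 with 100% mutated and Nsmce1 with 75% mutated to 321 for Cops8 with 50% mutated. In TKO cells it ran from 3 for Nsmce1 with 100% mutated to 83 for Cops8 with 50% mutated. All 15 constructs had at least 3 barcodes in at least 2 replicates in WT cells, and 14 did in TKO cells, where the unmutated Mul1 construct had 1 barcode in 1 replicate and no value. Across the library, 57 and 51 of the 60 constructs passed.

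Unmutated, Cops8 and Mul1 were among the most active promoters of the library and Nsmce1 was below most of it. In WT cells the unmutated Cops8 construct had activities of 1.57, 2.47 and 1.84, a mean log2 activity of 0.94 ± 0.33 (SD, n = 3). Mul1 had 1.35, 2.63 and 2.58, or 1.07 ± 0.55 (SD, n = 3) on the log2 scale. Nsmce1 had 0.367, 0.567 and 0.573, or -1.02 ± 0.37 (SD, n = 3). Every replicate of Cops8 and Mul1 was above every replicate of Nsmce1.

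The order of the 11 unmutated promoters by log2 activity put Mul1 at rank 2, Cops8 at rank 3 and Nsmce1 at rank 8. Cops8 exceeded Nsmce1 by 1.97 ± 0.29 (SE) log2 units (adjusted p = 6.19e-05) and Mul1 exceeded Nsmce1 by 2.09 ± 0.32 (adjusted p = 9.34e-05) in limma fits over all pairs of promoters at a matched step, with Benjamini-Hochberg adjustment over 255 such differences, of which 75.7% were called at an adjusted p under 0.05. Cops8 and Mul1 differed by -0.12 with a 95% interval of -0.82 to 0.57. The promoter at rank 1 exceeded Mul1 by 0.18 ± 0.30 (SE), Cops8 exceeded the promoter at rank 4 by 0.47 ± 0.27, and the promoter at rank 7 exceeded Nsmce1 by 0.10 ± 0.29, so none of these neighbours differed past the threshold. Nsmce1 exceeded the next promoter below it by 1.12 ± 0.30 (adjusted p = 0.00444).

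In WT cells 10 of the 12 mutants of the 3 promoters were less active than their 0% construct (adjusted p under 0.05 in limma on within-replicate differences), where 83.3% of the 42 mutants tested in the library were called lower. Their median change was -2.89 on the log2 scale, against -1.82 over all 42. The count therefore follows the library, and the 3 promoters differed from each other in the step at which activity was lost. Mul1 lost it at the first step, Nsmce1 in a graded way, and Cops8 in an irregular order. Each step of a promoter is 1 construct with 1 random draw of CpGs. The errors and p-values therefore cover replicates of that construct and not the spread between draws. Loss at the first step was not particular to Mul1. A weaker promoter of the library changed by -1.51 at 25% and by -1.55, -1.49 and -1.74 at the later steps. Of the 12 steps from one construct to the next, 8 were called in WT cells, 7 lower and 1 higher, beside 63.6% of 44 in the library. In TKO cells 9 of 11 were called, 7 lower and 2 higher, beside 62.9% of 35. Of these 9, the Mul1 steps into and out of 75% mutated rest on a construct without any RNA in TKO cells.

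**Figure D2:**
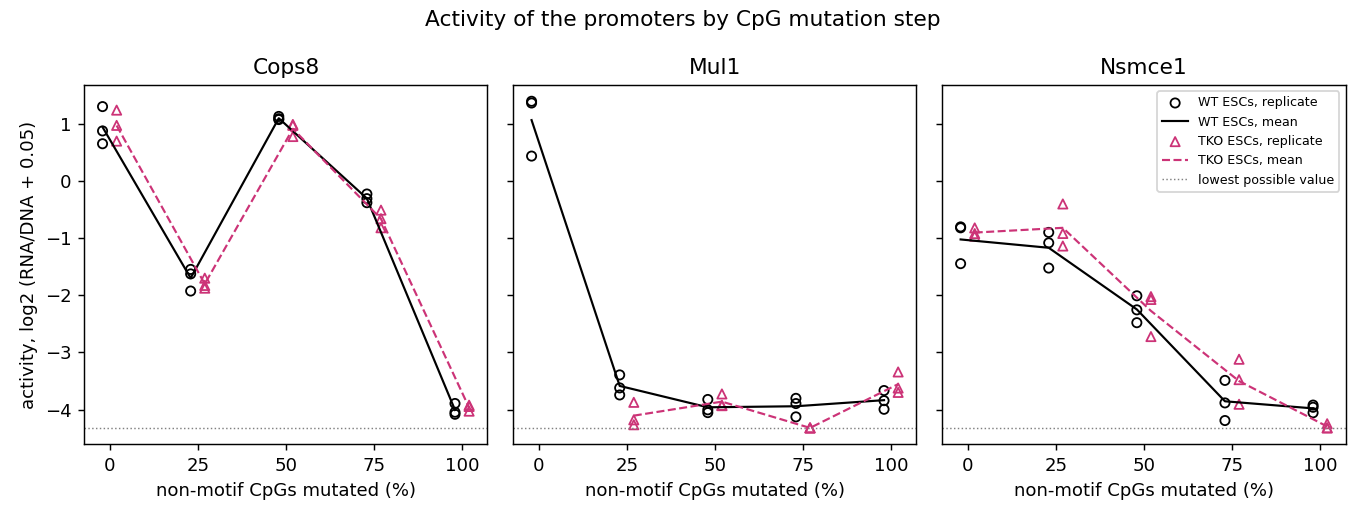
Activity (log2) of each construct against the percentage of non-motif-CpGs mutated, for 3 replicates (symbols) and their mean (lines) in WT and TKO ESCs; the dotted line is the lowest possible value. Cops8 dips at 25% and is back at its unmutated level at 50%, the mean of Mul1 lies within 0.77 log2 units of the dotted line from 25% on, and Nsmce1 declines from 50%.

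Mul1 lost most of its activity with the smallest dose of mutation. With 25% of the CpGs mutated, 33 of 43 CpGs remained and the 3 WT replicates had activities of 0.0951, 0.0812 and 0.0746. That was 4.34% ± 2.33 (SD, n = 3) of the unmutated construct, a change of -4.65 ± 0.30 (SE) on the log2 scale (adjusted p = 6.29e-05), or 25.1-fold lower. A fold of a construct this close to the lowest value understates the loss. The lowest values that the added 0.05 permits for Mul1 are 1.90% to 3.70% of the unmutated construct in the 3 replicates.

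Further mutation of Mul1 left little to lose. With 50% mutated the WT activities were 0.0602 to 0.0706 over 69 to 85 barcodes, with 75% they were 0.0572 to 0.0716, and with 100% they were 0.0627 to 0.0787. The step from 25% to 50% was -0.37 ± 0.10 (SE) log2 units (adjusted p = 0.0262, but 0.0521 to 0.0912 without the pairing of replicates or with any 1 replicate left out). The steps to 75% and to 100% were 0.02 ± 0.10 and 0.11 ± 0.10 and did not pass. At 25%, 50% and 75% mutated, Mul1 had lost more than each of the 8, 7 and 8 other promoters it was compared with, counting promoters other than Cops8 and Nsmce1 and differences with an adjusted p under 0.05. The loss that can be measured is limited by the unmutated level, which had a median log2 activity of -0.59 over the 8 other promoters. Most of them started too close to the lowest value to lose as much as Mul1. These comparisons were therefore largely fixed in advance.

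Nsmce1 kept its activity at 25% and lost it afterwards. With 25% mutated, 38 of 50 CpGs remained and the WT activities were 0.348, 0.472 and 0.536, or 90.5% ± 6.30 (SD, n = 3) of the unmutated construct. The difference was -0.15 with a 95% interval that limma put at -0.51 to 0.22, and it did not pass (adjusted p = 0.356). With 50% mutated the activities fell to 0.179, 0.248 and 0.209, or 43.1% ± 6.19, a change of -1.23 ± 0.16 (SE; adjusted p = 0.000888). With 75% mutated they were 0.0677, 0.0547 and 0.0890, or 14.5% ± 4.49, a change of -2.83 ± 0.22 (adjusted p = 0.000129).

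The last step of Nsmce1, from 75% to 100%, changed activity by -0.12 ± 0.18 (SE) log2 units in WT cells and did not pass. By then both constructs were near the lowest value: the 100% construct had activities of 0.0660, 0.0642 and 0.0601. For Nsmce1 the lowest value permitted is 8.73% to 13.6% of the unmutated construct, because that construct itself was weak. Its residual 13.3% ± 4.11 at 100% mutated is therefore not a higher level than the residual 3.29% ± 0.73 of Cops8 or 3.63% ± 1.90 of Mul1: the log2 activities of the 3 constructs were -3.98, -4.01 and -3.84.

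Cops8 activity fell and rose again along the series. With 25% mutated and 42 of 52 CpGs kept, the WT activities were 0.263, 0.342 and 0.324, or 16.1% ± 1.97 (SD, n = 3) of the unmutated construct, a change of -2.64 ± 0.15 (SE) on the log2 scale (adjusted p = 5.37e-05). With 50% mutated and 31 CpGs kept they were 2.11, 2.19 and 2.13, all above those at 25% and inside the range of the unmutated construct. The 50% construct stood at 112.9% ± 22.8 of the unmutated one, and its difference of 0.15 ± 0.18 did not pass (adjusted p = 0.418).

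The rise of Cops8 between 25% and 50% was 2.80 ± 0.12 (SE) log2 units (adjusted p = 0.000138), 6.96-fold. Rises were rare in the library: 4.55% of the 44 consecutive steps tested in WT cells were called higher, which is Cops8 at 50% and 1 other, Tusc3 at 75% with 0.63 ± 0.12, a promoter named after its value was seen. Another promoter rose by 0.70 at 25%, with an adjusted limma p of 0.0504 as a step and 0.0392 against 0%. The alternative settings called 1 to 3 WT steps higher. The 25% construct of Cops8 rests on 27 to 37 barcodes and its 50% construct on 275 to 321. Among its matched steps, Cops8 had lost more than each of the 8 other promoters compared at 25%, whereas at 50% it had kept more than 6 of 7. The weakest of the 8, with unmutated log2 activities down to -2.43, could not have lost as much. In log2 activity itself Cops8 had rank 7 of 12 at 25%.

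With 75% mutated, Cops8 activities were 0.854, 0.807 and 0.768, or 43% ± 10.8 (SD, n = 3) of the unmutated construct (change -1.25 ± 0.19 SE, adjusted p = 0.0019). It was then the most active of the 12 constructs with 75% mutated, with 20 CpGs left. With 100% mutated and 9 CpGs left the activities were 0.0590, 0.0605 and 0.0672, a change of -4.95 ± 0.19 (adjusted p = 2.22e-05), 30.9-fold lower. The step from 75% to 100% alone took -3.70 ± 0.12 log2 units.

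The 3 promoters differed from each other at 25% and at 50% mutated, and Cops8 from both others at 75%. In activity relative to the unmutated construct, Mul1 minus Nsmce1 was -4.51 ± 0.34 (SE) log2 units at 25% (adjusted p = 6.6e-07), and Cops8 minus Nsmce1 was -2.50 ± 0.25 (adjusted p = 2.22e-06). At 50% the order of Cops8 and Nsmce1 was the opposite, with Cops8 higher by 1.38 ± 0.27 (adjusted p = 0.000502), and Cops8 exceeded Mul1 by 5.18 ± 0.34. In all, 13 of the 15 differences among the 3 promoters were called, beside the 75.7% of all differences. Both exceptions were Cops8 against Mul1, at 0% and at 100%. At 75% Mul1 and Nsmce1 were both near the lowest value, with log2 activities of -3.94 and -3.86, so that their difference in loss of -2.18 follows the difference of 2.09 between the unmutated constructs. At 100% the differences Cops8 minus Nsmce1 and Mul1 minus Nsmce1 were -1.99 and -1.94 log2 units, close in size to the differences at 0% (1.97 and 2.09), with log2 activities of -4.01 to -3.84 in all 3 mutants.

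The number of CpGs left did not order activity across the 3 promoters. Cops8 with 50% mutated kept 31 CpGs (OE 0.73) and had activities of 2.11 to 2.19, whereas Mul1 with 25% mutated kept 33 CpGs (OE 0.72) and had 0.0746 to 0.0951. Likewise Cops8 with 25% mutated kept 42 CpGs and had 0.263 to 0.342, and unmutated Mul1 with its 43 CpGs had 1.35 to 2.63. Nsmce1 with 50% mutated kept 26 CpGs and had 0.179 to 0.248, above the 0.0602 to 0.0706 of Mul1 with 23. In none of these pairs did the replicates overlap. Those pairs were picked for their close CpG counts and the differences were not tested.

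**Figure D3:**
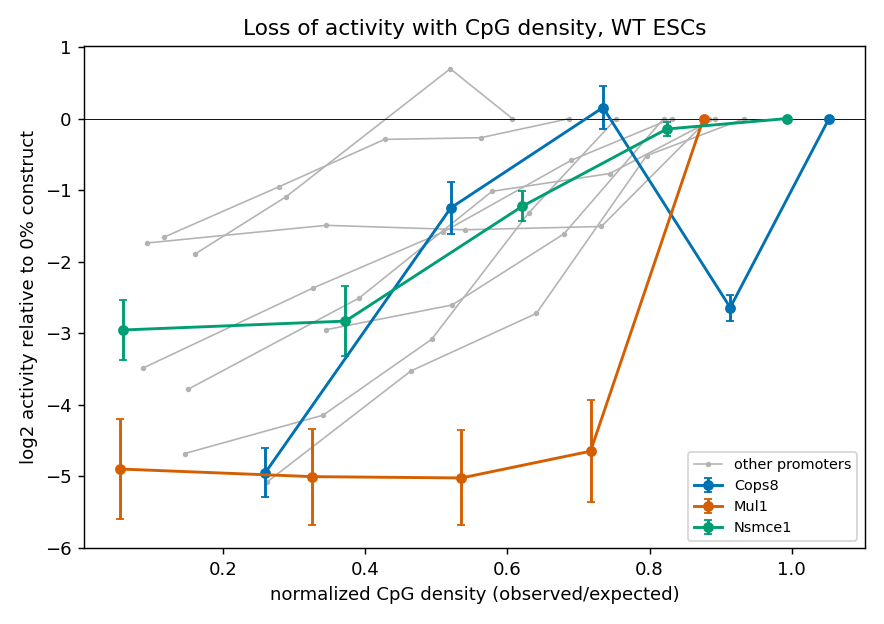
Log2 activity relative to the unmutated construct in WT ESCs against normalized CpG density, as means of 3 replicates with SD bars for Cops8, Mul1 and Nsmce1 and without bars for the other promoters (grey). Mul1 falls by 4.65 between OE 0.88 and 0.72, and Cops8 has its dip at OE 0.91 and a value of 0.15 at OE 0.73.

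The promoter most like each of them in its losses was found as the smallest root mean square difference of log2 relative activity over the 4 mutated steps in WT cells, among the promoters that are not in the ubiquitin pathway. Nsmce1 lay closest to Nvl, at 0.45 log2 units; Nvl kept 76.5% ± 48.8 (SD, n = 3) of its activity at 25% mutated and 33.4%, 19.4% and 9.04% at the later steps. Mul1 lay closest to Usf1, at 1.96, and Cops8 to Napg, at 1.40. Neither distance is small: Napg had 58.7% ± 2.62 (SD, n = 3) at 25% where Cops8 had 16.1%, and Usf1 had 49.4% ± 40.9 (SD, n = 2) where Mul1 had 4.34%, although that Usf1 value rests on 2 replicates that lie far apart. The 3 pathway promoters were no closer to each other, at 1.91 for Cops8 and Nsmce1, 3.29 for Mul1 and Nsmce1 and 3.35 for Cops8 and Mul1. This is a description over 4 points per pair.

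The same library in TKO cells addressed whether the losses depend on DNA methylation. Cops8 and Nsmce1 followed their WT courses in TKO cells, except that the last step of Nsmce1 was called only there. Unmutated Cops8 had TKO activities of 1.62, 1.96 and 2.36, the 25% construct 0.282, 0.307 and 0.272, and the 50% construct 1.96, 1.71 and 1.99. The dip at 25% and the return at 50% were thus present in all 3 TKO replicates. The TKO rise between these steps was 2.72 ± 0.13 (SE) log2 units (adjusted p = 0.000475), where 8.57% of the 35 steps tested were called higher. With 75% mutated the TKO values were 0.702, 0.567 and 0.633 and with 100% they were 0.0613, 0.0658 and 0.0648.

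Nsmce1 in TKO cells had 0.512, 0.566 and 0.528 unmutated, and 0.454, 0.529 and 0.757 with 25% mutated. The values fell to 0.151, 0.237 and 0.246 at 50% and to 0.0666, 0.0898 and 0.115 at 75%. With 100% mutated they were 0.0526, 0.05 and 0.05 over 3 barcodes, so in 2 replicates no barcode had any RNA. The promoter kept its level at 25% and declined from 50% on, as in WT cells. Its step from 75% to 100% was -0.80 ± 0.20 (SE) log2 units in TKO cells (limma, adjusted p = 0.0259), whereas the WT step was not called. The TKO step rests on 3 barcodes at 100%, and its call was lost in 2 of 9 alternatives. Not all of the 9 could change it, since some repeated the main fit.

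In the TKO cells 6 of the 8 mutants of Cops8 and Nsmce1 were called lower than the unmutated construct, where 87.9% of the 33 mutants tested in the library were. The changes were -2.77, -0.06, -1.63 and -4.94 log2 units for Cops8 from 25% to 100% and 0.08, -1.37, -2.60 and -3.39 for Nsmce1, each ± 0.22 (SE), an error that limma pooled over all constructs in this fit. The adjusted p of the 6 called mutants was at most 1.23e-07. The mutants not called were Cops8 at 50% and Nsmce1 at 25%, the same pair as in WT cells.

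The loss itself did not differ past the threshold between the cell lines in any of the 8 mutants of Cops8 and Nsmce1 (limma on log2 relative activity, adjusted p 0.356 to 0.966, smallest unadjusted p 0.119, where 12.1% of 33 mutants in the library were called). For Cops8 the TKO loss minus the WT loss was -0.13 (95% interval -0.67 to 0.41) at 25%, -0.21 (-0.77 to 0.34) at 50%, -0.38 (-0.97 to 0.20) at 75% and 0.01 (-0.54 to 0.57) at 100%. For Nsmce1 it was 0.23 (-0.32 to 0.78), -0.15 (-0.70 to 0.41), 0.23 (-0.38 to 0.84) and -0.44 (-1.0 to 0.12). The 8 intervals together reach from -1.0 to 0.84 log2 units.

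Mul1 has no unmutated value in TKO cells, so its loss could not be computed there and only the mutants were compared. The TKO activities with 25% mutated were 0.0519, 0.0682 and 0.0551, and with 50% mutated 0.0755, 0.0658 and 0.0655. With 75% mutated all 3 TKO replicates were at 0.05, so none of 4 to 5 barcodes had any RNA, and with 100% mutated they were 0.0811, 0.0986 and 0.0769. The step from 75% to 100% passed the test, but it starts from a construct without RNA and rests on 4 to 5 barcodes, so no size is given for it. No Mul1 mutant exceeded 0.0986 in TKO cells, compared with 1.35 or more for the unmutated promoter in WT cells.

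In log2 activity, 3 of the 14 constructs tested were called between TKO and WT cells, all lower in TKO cells, where 27.5% of 51 constructs in the library were called and 13.7% were called lower. They were Mul1 at 25% (-0.52 ± 0.15 SE), Mul1 at 75% (-0.38 ± 0.11) and Nsmce1 at 100% (-0.32 ± 0.09), each with an adjusted p of 0.0445 or just under it. All 3 are near the lowest value in TKO cells, with 3 to 8 barcodes a replicate, and Mul1 at 75% had no RNA there. The calls were lost when any 1 replicate was left out and when constructs were weighted by barcodes. Among constructs with appreciable activity, Cops8 at 75% came nearest the threshold, with -0.36 ± 0.11 (adjusted p = 0.0569), and its 3 TKO values lay below its 3 WT values.

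**Figure D4:**
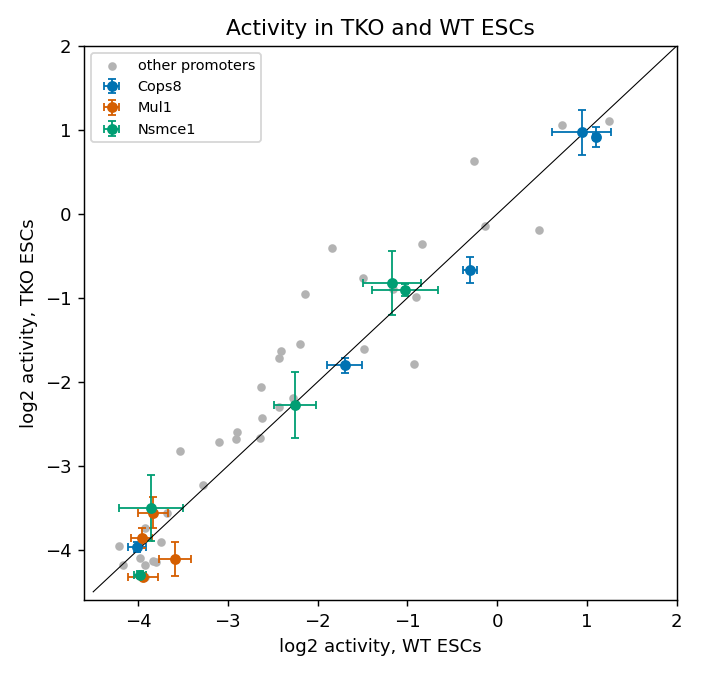
Mean log2 activity in TKO ESCs against WT ESCs for constructs measured in both, with SD bars over 3 replicates for Cops8, Mul1 and Nsmce1, the other promoters in grey, and the line of equality. Constructs of Cops8 and Nsmce1 lie along the line over their whole range, and the 4 Mul1 mutants lie in the lower left corner.

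Methylation of the inserted constructs was measured by amplicon bisulfite sequencing in clones grown from single WT cells, and 24 of the 58 clone values belong to these promoters. The deposited value is the mean methylation over the CpGs of the construct, with no coverage, so the depth is unknown. The Cops8 construct with 50% mutated, active at the unmutated level, was represented by 10 clones with 0.0207% to 10.2% methylation (median 2.34%). With 75% mutated, at 43% of the unmutated activity, 7 clones had 0.0307% to 26.7% (median 8.87%). These ranges overlap, and 6 of the 7 clones were below 10%.

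The Mul1 mutants differed among themselves in methylation. The 1 clone with 25% mutated had 2.55%, whereas the single clones with 50% and 75% mutated had 69.6% and 66.7%. The log2 activities of these constructs in WT cells were 0.73, 0.36 and 0.38 above the lowest value. By the cut used here the 25% construct was thus not near that value, unlike the other constructs. Each value is 1 clone, so no spread can be given. For Nsmce1 only unmutated clones were measured, 4 of them, at 0.711% to 2.44%. Clones of the other promoters had a median of 0.313% unmutated, 17.2% with 25% mutated, 34.9% with 50% and 50.5% with 75%, in 5 to 9 clones a step.

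**Figure D5:**
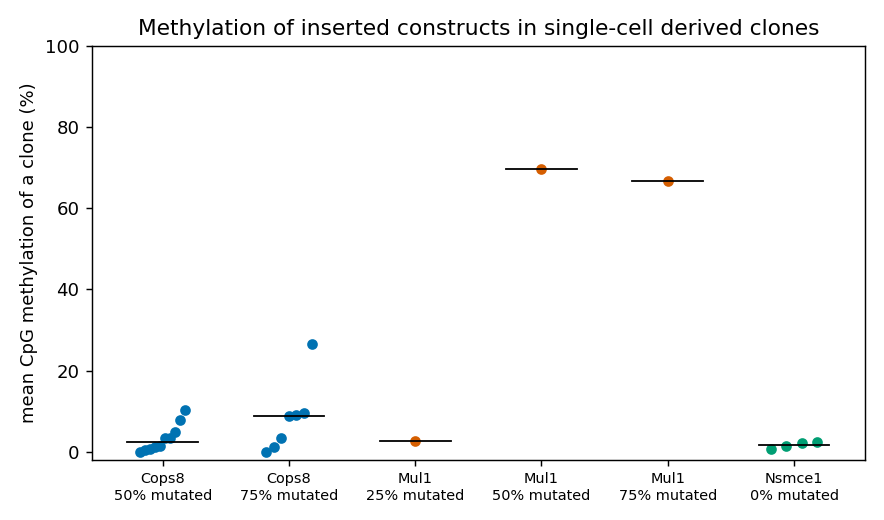
Mean CpG methylation (%) of single-cell-derived WT clones (points) and their median (line) for each construct of Cops8, Mul1 and Nsmce1 with a value. The 17 Cops8 clones stay at or below 26.7% and the Mul1 clones with 50% and 75% mutated are at 69.6% and 66.7%.

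The earlier housekeeping library gave a second reading of the unmutated promoters, from fewer barcodes and on its own scale, so that levels are compared only within it. Cops8 had activities of 2.13, 7.99 and 8.39 from 6 to 7 barcodes, a log2 activity of 2.39 ± 1.12 (SD, n = 3). Mul1 had 1.54 and 4.88 in the 2 replicates with at least 3 barcodes, or 1.46 ± 1.17 (SD, n = 2), and Nsmce1 had 0.870, 0.761 and 1.37 from 10 to 14 barcodes, or -0.05 ± 0.44 (SD, n = 3). Cops8, Mul1 and Nsmce1 had ranks 3, 11 and 21 among 32 promoters, and 1, 3 and 8 among the 12 promoters shared with the mutant library, where their ranks among 11 were 3, 2 and 8.

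Of the 3 differences among them in that library, 1 was called, beside 53.6% of 496 pairs. Cops8 exceeded Nsmce1 by 2.43 ± 0.64 (SE) log2 units (adjusted p = 0.0139), in the direction of the mutant library, although the call was lost without replicate 2 or without replicate 3. Mul1 exceeded Nsmce1 by 1.5 ± 0.66 (adjusted p = 0.0972), and Cops8 and Mul1 differed by 0.93 (95% interval -1.07 to 2.93).

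Other genes of the ubiquitin pathway gave 4 further promoters in the housekeeping libraries. Psmd2, a subunit of the proteasome cap, had 2.16 and 4.06 in the second library (log2 1.57 ± 0.65 SD, n = 2), close to Mul1. Otud5, a deubiquitinase, had 0.149, 0.235 and 0.236 (log2 -2.31 ± 0.38 SD, n = 3), below every replicate of Cops8, Mul1 and Nsmce1. Psmd4, the ubiquitin receptor of the proteasome, had 1.18, 1.41 and 0.665 in the first library, scaled separately. Fbxo46, an F-box protein, had 1 barcode in each of 2 replicates and no value.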

How the data were processed

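Mouse TC-1 ESCs carried barcoded promoter libraries, and RNA and DNA barcodes were sequenced per replicate. To assign barcodes to promoters, the authors aligned reads to mm9 with Bowtie where the library design permitted it and matched the reads of mutant libraries to the designed sequences by string distance in R, per their methods. They deposited the activity of each construct as a ratio of RNA to DNA barcodes with 0.05 added, left empty below 3 barcodes, together with the counts of barcodes. The deposited activity relative to the 0% construct is the ratio of these values (largest difference 5.8e-15 over 288 values). GC content was deposited by the authors in percent, CpG density as a ratio (observed CpGs to expected), and clone methylation as a fraction, printed here in percent. Constructs needed at least 3 barcodes in at least 2 replicates. Log2 values, with no further pseudocount, were tested in limma 3.58.1 (R 4.3.3), two-sided, with Benjamini-Hochberg adjustment over all constructs or pairs of a library and a threshold of 0.05. Mutants and steps were compared within a replicate, since both constructs share a library. TKO and WT cells, and promoter pairs, were compared as 3 values against 3. Promoters of a pair were measured in the same replicates too. A replicate block for the pairs left 13 of the 15 differences among the 3 promoters called. Pairs reuse the same constructs, so their tests are not independent. In the TKO fit against 0%, limma gave 1 common variance. The fits were also run on simulated normal values without a lower bound, missing replicates or shared constructs. That run says nothing about those features of the data. Named were all rows of the 3 genes, the nearest other promoter of each and the listed ubiquitin genes. The members and lists were chosen with earlier results of these data known. The reference was the mm9 genome with GENCODE M1 starts. Tables of other libraries and of ChIP-seq were not used here.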

Additional observations from a re-analysis of the deposited data

Results flagged for a closer look

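Of the 3 groups of 4 to 10 clones, 1 held a clone far from the others. Among the 7 clones of Cops8 with 75% of CpGs mutated, the highest had 26.7% methylation and the next 9.45%, a gap of 0.646 of the whole range against a critical value of 0.568 (Dixon's ratio). Chance flags about 1 in 20 such groups where values are normally distributed, which percentages close to their lower bound need not be. The coverage behind this clone is unknown. The 10 clones of Cops8 with 50% mutated and the 4 clones of unmutated Nsmce1 held no such clone.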

How the results depend on the processing

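Over all alternatives, 746 values of single constructs or pairs kept their direction and their side of the threshold and 31 lost the call. Some of the 746 could not have changed. Activities were deposited empty below the barcode minimum, so dropping that minimum, or leaving out replicates under it, repeated the main fits. The deposited relative activity is the ratio of the activities, so using it repeated them too. The 746 therefore overstates how many values were put to a test. Another 23 values, from 16 comparisons, changed sign. None of these was called before or after, and the largest was 0.24 log2 units in size. In TKO minus WT log2 activity, centring on the median gave -0.16 for Cops8 at 0%, -0.15 for Cops8 at 100%, -0.088 for Mul1 at 50% and -0.067 for Nsmce1 at 0%, and weights by barcodes gave 0.0089 for Nsmce1 at 50%. For the loss of Cops8 at 100% in TKO against WT cells, log2(activity + 0.05) gave -0.0036 and weights by barcodes -0.0024, and for Cops8 minus Mul1 at 100% log2(activity + 0.05) gave 0.021. With 1 replicate left out, TKO minus WT log2 activity ran from -0.14 to 0.21 for Cops8 at 0%, -0.060 to 0.24 for Nsmce1 at 0% and -0.15 to 0.084 for Nsmce1 at 50%. The loss compared between cell lines ran from -0.20 to 0.23 for Cops8 at 100%, -0.28 to 0.11 for Cops8 at 25%, -0.39 to 0.14 for Nsmce1 at 50% and -0.0084 to 0.60 for Nsmce1 at 75%. In TKO cells Nsmce1 at 25% against 0% ran from -0.13 to 0.21 and Cops8 at 50% against 0% from -0.22 to 0.040. Steps ran from -0.027 to 0.065 for Mul1 to 75% and -0.30 to 0.10 for Nsmce1 to 100% in WT cells. Cops8 minus Mul1 ran from -0.29 to 0.061 at 0% and -0.37 to 0.24 at 100%. The losses against the 0% construct, the loss compared between cell lines and the differences between promoters at a matched step kept every member's call where a value could be had. The rise of Cops8 between 25% and 50% kept its call in both cell lines under every alternative that gave it a value.

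The comparison of TKO with WT log2 activity was the least stable. Against 14 calls in the library and 3 among Cops8, Mul1 and Nsmce1, there were 2 and 0 with at least 10 barcodes, 1 and 0 with log2(activity + 0.05), 0 and 0 with the replicate block (17 at an unadjusted limma p under 0.05), 1 and 0 with weights by barcodes, 9 and 0 without constructs near the lowest value, and 9 and 2 after centring on the median, which moved the median difference of all constructs from 0.08 to -0.09. Leaving out 1 replicate gave 0 to 7 calls in the library (7 to 14 at an unadjusted p under 0.05) and 0 among the 3 promoters. The number tested fell too in some settings. It was 51 constructs, 14 of them of the 3 promoters, and 27 and 6 with at least 10 barcodes. Without constructs near the lowest value it was 40 and 10, and without 1 replicate 47 to 49 and 14. The loss relative to 0%, with 4 calls in the library, gave 0 with at least 10 barcodes (2 at an unadjusted p under 0.05), 1 with the replicate block, 1 with weights by barcodes and 1 to 4 without 1 replicate, and none among the 3 promoters. It was tested in 33 mutants, but in 13 with at least 10 barcodes and in 26 to 31 without 1 replicate.

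With at least 10 barcodes, fewer constructs could be tested in TKO cells: 11 of 13 mutants were called, 2 of them of the 3 promoters, and 11 of 14 consecutive steps, again 2 of them. In the second housekeeping library 17 of 28 pairs were then called, and no pair of the 3 promoters could be tested. Without 1 replicate, 154 to 228 pairs were called there instead of 266, and 0 to 1 of the 1 to 3 testable pairs of the 3 promoters: Cops8 minus Nsmce1 was 1.95 (adjusted p = 0.111) without replicate 2 and 2.34 (adjusted p = 0.0573) without replicate 3.

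Same-numbered WT and TKO replicates deviated together with correlations of 0.07, 0.06 and 0.41 over 47 constructs. WT replicate 3 correlated at -0.25 and -0.09 with TKO replicates 1 and 2. Whether same-numbered replicates share more than a number is therefore not settled. WT replicates 1 and 3 correlated best with their own number and replicate 2 did not. TKO values rest on fewer barcodes, with a median of 8 to 9 barcodes a construct against 20 to 24 in WT cells, and values near 0.05 cannot be ordered.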
